A study of Mus musculus with 8 samples.

Results

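The genes described here write and read methylation of lysine 9 of histone H3 (H3K9). They are Ehmt1, Ehmt2, Suv39h1, Suv39h2, Setdb1 and Setdb2, which encode H3K9 methyltransferases or their close relatives, Cbx1, Cbx3 and Cbx5, which encode the HP1 proteins, and Trim28, which encodes the corepressor that brings SETDB1 to its targets. They were picked by symbol from 23366 gene symbols in the count table, with 1 transcript row for each symbol. All 10 were found and all 10 passed the filter on low counts. Cbx3 has 6 pseudogenes named after it in the mouse annotation, which makes its counts less certain. Pseudogenes under other names were not searched for, so the other members may have some as well.

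The cells were mouse embryonic fibroblasts (MEFs), primary connective tissue cells from embryos, of strain C57BL/6 at passages 3 to 5. The 4 groups of 2 libraries were kdm3a KO cells starved of glucose for 12 h, kdm3a KO cells at 0 h (fed), WT cells starved of glucose for 12 h and WT cells at 0 h (fed). KDM3A is a demethylase that removes methyl groups from H3K9, and the study asked how its loss alters expression with and without nutrients. Starved cells were rinsed and given medium lacking glucose with dialysed serum, while fed cells had ordinary serum. Glucose, serum type and the 12 h in culture therefore changed together and cannot be told apart. The labels name neither the KO allele nor separate embryos or cultures for the 2 libraries of a group, so each p-value here reflects spread between libraries that may be technical.

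Libraries held 38407526 to 53602297 counts, and the counts of replicates lay further apart than counting noise allows (chi-square per degree of freedom 3.34 to 6.04). Kdm3a itself was read at 65.4 and 66.7 CPM (counts scaled to a common library size) in the starved libraries labelled KO and at 55.2 and 55.4 CPM in the fed ones, against 176 and 185 CPM in starved WT and 56.1 and 56.4 CPM in fed WT. The fed libraries labelled KO thus did not show a lower Kdm3a count than fed WT, and all KO libraries are called KO-labelled throughout. Counts over a whole transcript do not show whether an exon is missing. Xist stood at 869 to 1370 CPM in KO-labelled and at 0.939 to 1.54 CPM in WT libraries. The sex of the embryos and the KO label therefore cannot be told apart in any comparison between them. All 10 fibroblast markers had counts in each group, but their levels differed strongly between groups, as did some markers of other cell types; these values are given after the members.

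Methyl groups on H3K9 mark silent chromatin. The G9a and GLP enzymes act as a pair and place mono- and dimethylation in gene-rich chromatin, SUV39H1 and SUV39H2 trimethylate H3K9 at the repeats around centromeres, and SETDB1 acts on retrotransposons and imprinted genes where KRAB zinc finger proteins have brought TRIM28. HP1 proteins bind the methylated lysine through a chromodomain and recruit further partners through a chromoshadow domain. KDM3A works against G9a and GLP, as it removes mono- and dimethylation.

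To show what lies upstream of the members whose responses are described most fully, the 250 bases before an annotated start site are printed for Cbx5 (the HP1 gene with the largest fall on starvation among the 3), Suv39h1 (lower after starvation in both genotypes) and Trim28 (a gene whose response differed between the genotypes). The windows lie at chr15:103239853-103240102 on the minus strand, at chrX:8074761-8075010 on the minus strand and at chr7:13023902-13024151 on the plus strand of RefSeq GRCm38.p6. They overlap no annotated exon. Capitals mark CCAAT on either strand (it reads ATTGG on the other) and GCGGGAA, an E2F-type motif, on either strand.
Cbx5: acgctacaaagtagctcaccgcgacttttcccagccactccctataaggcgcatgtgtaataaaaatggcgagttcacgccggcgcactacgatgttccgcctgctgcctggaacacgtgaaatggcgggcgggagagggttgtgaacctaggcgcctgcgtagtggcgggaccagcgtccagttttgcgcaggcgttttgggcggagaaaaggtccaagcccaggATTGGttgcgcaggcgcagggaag
Suv39h1: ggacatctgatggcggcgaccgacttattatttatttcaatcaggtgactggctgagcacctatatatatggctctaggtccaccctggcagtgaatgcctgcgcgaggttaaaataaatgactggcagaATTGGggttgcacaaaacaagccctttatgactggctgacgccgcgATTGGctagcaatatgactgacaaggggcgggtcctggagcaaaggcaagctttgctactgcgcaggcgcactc
Trim28: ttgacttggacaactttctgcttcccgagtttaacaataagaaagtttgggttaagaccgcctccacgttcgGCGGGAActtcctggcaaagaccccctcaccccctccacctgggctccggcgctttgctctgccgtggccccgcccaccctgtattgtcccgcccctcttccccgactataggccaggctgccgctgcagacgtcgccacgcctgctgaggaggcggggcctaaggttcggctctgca
The printed Cbx5 window held CCAAT starting at position -24, counted from the start site, and the printed Suv39h1 window held it at -120 and -74. Cbx5 and Suv39h1 each have another annotated window, not printed, that held no CCAAT. The Trim28 window held GCGGGAA at -178. Over the 14 windows annotated for the 10 genes, 4 held CCAAT, as did 33.8% of all 32851 windows. GCGGGAA was in 2 of the 14, those of Suv39h2 and Trim28, and in 3.82% of all windows. GGGCGG (the GC box) was in 12 of the 14 and in 32.7% of all, and CACGTG (the E-box) in 3 of the 14 and in 6.02% of all. TTTGAA (the cell cycle homology region, 16% of all windows), TGATGNAA (the amino acid response element, 3.45%) and the palindromic NRF1 motif (0.782%) were in none of the 14. Both strands were searched, and GGGCGG and GCGGGAA can overlap each other.

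The values below are CPM on a common scale, that is, counts divided by a library total adjusted with TMM, a method that sets the scale from the bulk of genes. The choice matters in these data, since the TMM factors were 0.985 and 0.987 in starved KO-labelled, 1.177 and 1.178 in fed KO-labelled, 0.794 and 0.7904 in starved WT and 1.086 and 1.088 in fed WT libraries. Dividing by plain library totals moved the median log2 fold change of all 14418 tested genes by -0.26 for starvation in KO-labelled cells, by -0.46 for starvation in WT cells, by 0.32 for KO-labelled against WT when starved and by 0.12 when fed. Members whose direction depended on this are named where they occur. A gene is said to have risen, fallen or been called when edgeR's quasi-likelihood test gave a Benjamini-Hochberg adjusted p under 0.05 over all tested genes. Log2 fold changes are given ± SE.

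**Figure D1:**
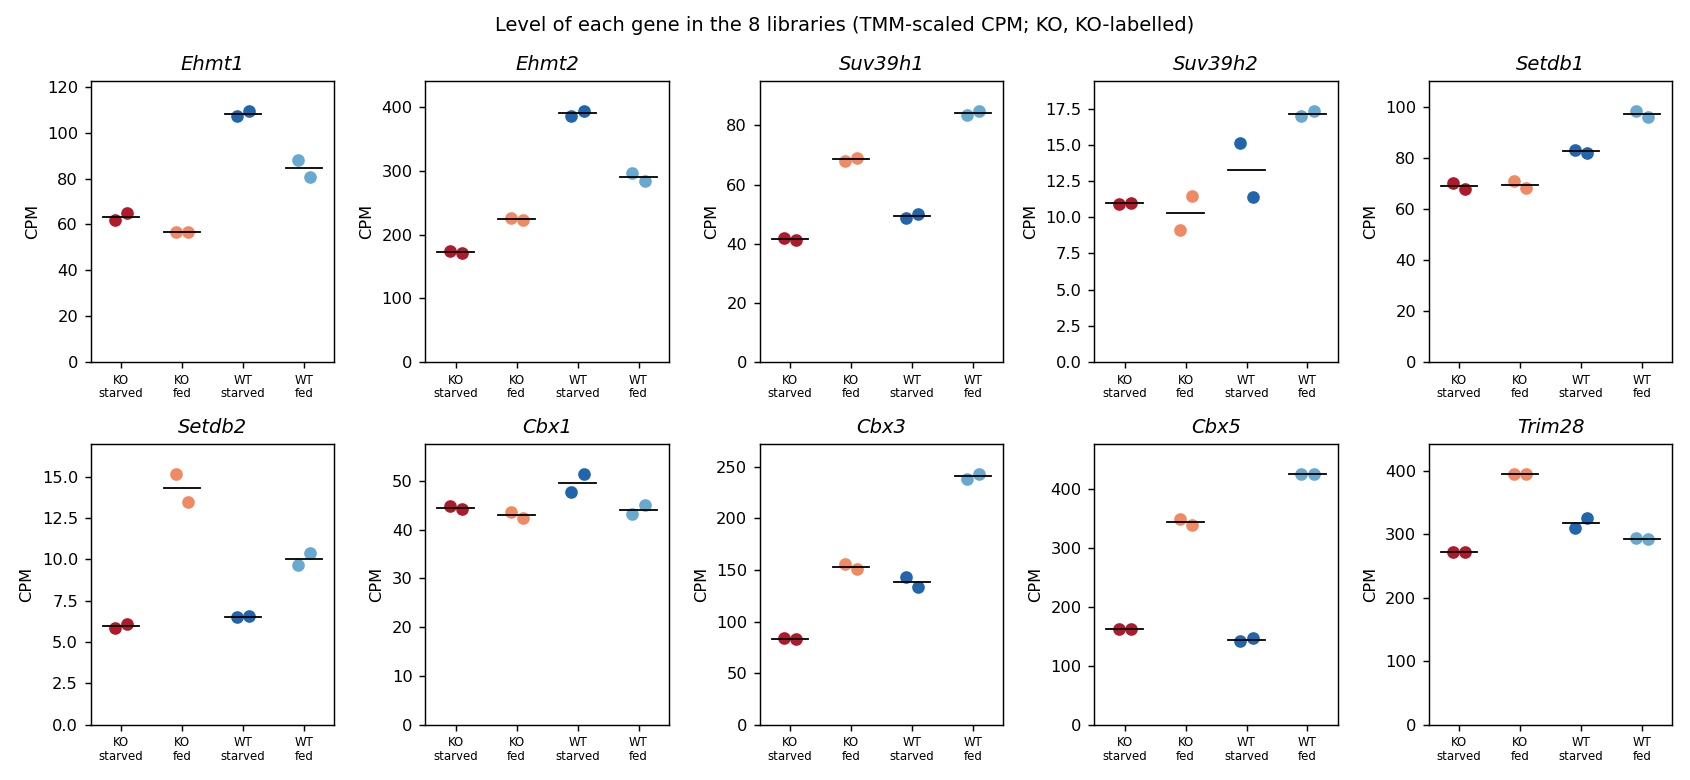
Level of each of the 10 genes in CPM (TMM-scaled; each vertical axis starts at 0) in the 4 groups, with 1 point per library and a line at the mean of the 2. Ehmt2 is highest in starved WT (387 and 394 CPM) and lowest in starved KO-labelled libraries (173 and 172 CPM), while Cbx5 is low in all 4 starved libraries.

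Starvation in KO-labelled cells changed 7 of the 10 genes, with 1 higher and 6 lower, beside 79.7% of all tested genes (39.4% higher, 40.3% lower). In WT cells it changed all 10, with 4 higher and 6 lower, beside 81.6% of all tested genes (36.7% higher, 44.8% lower). The calls were thus about as common as in the whole table. The median log2 fold change of the 10 was -0.46 in KO-labelled and -0.30 in WT cells, against -0.02 and -0.17 for all tested genes. On the TMM scale a change of more than 2-fold was found for Setdb2 and Cbx5 in KO-labelled cells (beside 33.2% of all tested genes). In WT cells it was found for Cbx5 (beside 42.4%). With plain library totals no member rose in either genotype and 8 fell in each. Cbx3 in KO-labelled cells (-1.13) then also passed 2-fold. In WT cells Suv39h1 (-1.22), Setdb2 (-1.07) and Cbx3 (-1.26) did so too. The share of all tested genes over 2-fold was not counted on that scale.

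Between genotypes, 9 of the 10 differed when starved, with 1 higher and 8 lower in KO-labelled cells, beside 79.6% of all tested genes (41.9% higher, 37.7% lower). When fed, 9 differed as well, with 2 higher and 7 lower in KO-labelled cells, beside 74.4% (34.5% higher, 39.8% lower). The starvation response itself differed between the genotypes for 7 of the 10, with 3 responses more positive and 4 more negative in KO-labelled cells, beside 64.5% of all tested genes (34.1% and 30.4%). On the TMM scale Ehmt2 was the member over 2-fold apart when starved (beside 34.3% of all tested genes). With library totals it was under 2-fold apart (-0.86). No member was over 2-fold apart when fed (23.7% of all) or in its response (22% of all). With plain library totals 3 members were higher and 3 lower in starved KO-labelled cells, while the fed split stayed at 2 higher and 7 lower, and the responses split into 5 more positive and 3 more negative.

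**Figure D2:**
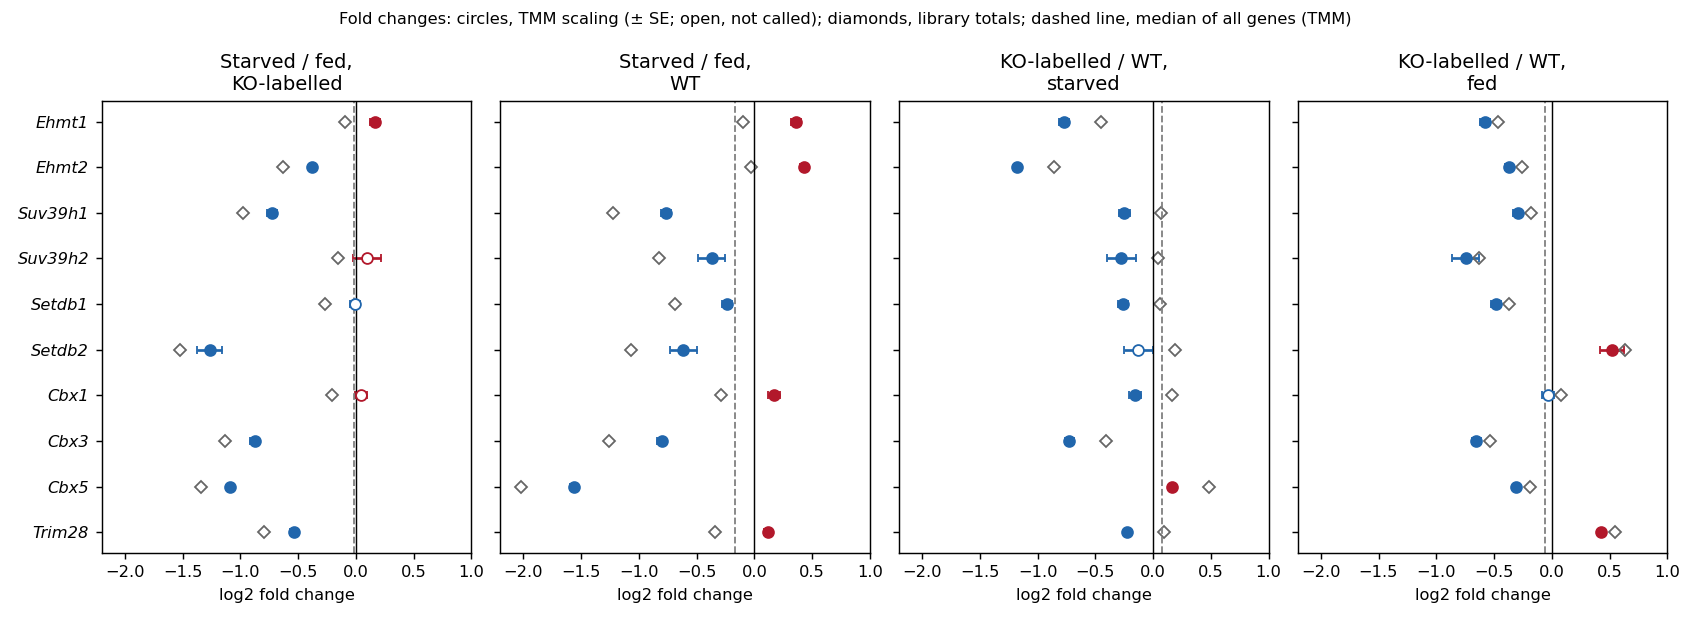
Log2 fold change of each gene in 4 comparisons (horizontal axis, bars ± SE). Circles are red above 0, blue below 0 and open where not called, diamonds show plain library totals, and the dashed line is the median of all tested genes. Ehmt1, Ehmt2, Cbx1 and Trim28 change sign between circle and diamond for starvation in WT cells, and Suv39h1, Suv39h2, Setdb1, Setdb2, Cbx1 and Trim28 do so for KO-labelled against WT when starved.

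Ehmt2, which encodes G9a, responded to starvation in opposite directions on the TMM scale. It was read at 173 and 172 CPM in starved and 225 and 223 CPM in fed KO-labelled libraries, against 387 and 394 CPM in starved and 296 and 284 CPM in fed WT libraries. The 4 groups did not overlap, with starved WT highest and starved KO-labelled lowest. Ehmt2 fell on starvation in KO-labelled cells (-0.38 ± 0.0313, adjusted p = 3.93e-10) and rose in WT cells (0.43 ± 0.0309, adjusted p = 3.17e-11), although with library totals the WT value was -0.03 (adjusted p = 0.4). The difference of the responses was -0.81 ± 0.044 (adjusted p = 1.52e-12) and was -0.61 with library totals. KO-labelled cells had less Ehmt2 than WT when starved (-1.18 ± 0.0315, a 2.26-fold difference) and when fed (-0.37 ± 0.0309). With library totals the values were -0.86 when starved, which is under 2-fold, and -0.26 when fed. Both differences were called in each of 15 alternative analyses.

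Ehmt1, which encodes GLP, the partner of G9a, differed between genotypes more than between feeding states. Its level was 62.0 and 65.0 CPM in starved and 56.6 and 56.7 CPM in fed KO-labelled libraries, against 107 and 110 CPM in starved and 88.1 and 80.9 CPM in fed WT libraries. All 4 KO-labelled libraries lay below all 4 WT libraries. The log2 difference was -0.77 ± 0.0461 when starved (adjusted p = 1.57e-12) and -0.58 ± 0.046 when fed (adjusted p = 2.93e-10), again called in each of 15 alternatives. Starvation raised Ehmt1 by 0.17 ± 0.0463 in KO-labelled cells (adjusted p = 0.00273) and by 0.36 ± 0.0456 in WT cells (adjusted p = 2.96e-07) with TMM, but with library totals the values were -0.09 and -0.10 and neither was called. Its response differed by -0.19 ± 0.065 (adjusted p = 0.0133), but it was 0.01 with library totals. It was -0.13 (adjusted p = 0.112) without the second fed WT library, -0.15 (adjusted p = 0.0784) without the first starved KO-labelled library, and -0.33 or -0.31 without the first or the second starved WT library.

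Within a library the ratio of 2 genes does not depend on the scaling. Ehmt2 had 2.80 and 2.64 counts per count of Ehmt1 in starved and 3.99 and 3.93 in fed KO-labelled libraries, against 3.60 and 3.60 in starved and 3.36 and 3.51 in fed WT libraries. The ratio was lowest in starved KO-labelled and highest in fed KO-labelled libraries, with both WT groups between them. These ratios are of counts, not of transcripts. Per kilobase of transcript Ehmt2 averaged 42.9, 55.6, 96.9 and 72.0 CPM in starved KO-labelled, fed KO-labelled, starved WT and fed WT libraries, and Ehmt1 averaged 13.6, 12.1, 23.2 and 18.1 CPM in the same groups.

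Suv39h1 encodes a main trimethylase of pericentric heterochromatin. It was read at 42.0 and 41.1 CPM in starved and 68.0 and 69.1 CPM in fed KO-labelled libraries, against 48.8 and 50.03 CPM in starved and 83.4 and 84.8 CPM in fed WT libraries. All starved libraries lay below all fed ones. The fall was -0.72 ± 0.0438 in KO-labelled cells (adjusted p = 1.84e-12) and -0.77 ± 0.0449 in WT cells (adjusted p = 8.14e-13). The difference of the responses, 0.05 ± 0.0628, was not called (adjusted p = 0.548), though it was 0.25 and called (adjusted p = 0.00156) with library totals. Fed KO-labelled cells had less Suv39h1 than fed WT cells (-0.30 ± 0.042), and starved ones also did with TMM (-0.25 ± 0.0467) but not with library totals (0.07, adjusted p = 0.198). Suv39h1 is on the X chromosome, so its genotype differences stand beside the Xist difference given above. An annotated antisense gene, Gm14820, overlaps 14.6% of its exonic bases, and whether counting used strand is not given in the sources used here.

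Suv39h2, the second gene of this pair, was expressed at low levels. It had 10.9 and 11 CPM in starved and 9.11 and 11.5 CPM in fed KO-labelled libraries, against 15.1 and 11.4 CPM in starved and 16.98 and 17.3 CPM in fed WT libraries. The starved WT libraries differed from each other by more than those of the other groups, and the 2 KO-labelled groups overlapped. Fed KO-labelled cells had less Suv39h2 than fed WT cells (-0.74 ± 0.117, adjusted p = 7.73e-06), as in each of 15 alternatives. On starvation the value was 0.10 ± 0.12 in KO-labelled cells (adjusted p = 0.452; -0.16 with library totals, also not called), and Suv39h2 fell in WT cells (-0.37 ± 0.12, adjusted p = 0.00772). The WT fall was -0.10 (adjusted p = 0.438) without the second starved WT library. Between starved groups the value was -0.27 ± 0.124 (adjusted p = 0.0485). It was 0.04 with library totals and -0.12 or -0.53 without the first or the second starved WT library, and it was called in 6 of 15 alternatives. Without either starved KO-labelled or either fed WT library it stayed between -0.28 and -0.27 and was not called. Its response differed by 0.47 ± 0.17 (adjusted p = 0.0199). With DESeq2, another test on counts, the difference was 0.37 and not called (adjusted p = 0.115). It was 0.15 without the second starved WT library and 0.31 without the first fed KO-labelled library, and neither was called. Exons of Dclre1c, on the opposite strand, overlap 8.1% of its exonic bases.

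Setdb1 encodes the trimethylase that works with TRIM28. It was read at 70.4 and 68.0 CPM in starved and 71.0 and 68.1 CPM in fed KO-labelled libraries, against 83.4 and 82.1 CPM in starved and 98.5 and 96.2 CPM in fed WT libraries. The KO-labelled groups overlapped, and all 4 KO-labelled libraries lay below all 4 WT libraries. Fed KO-labelled cells had less Setdb1 than fed WT cells (-0.48 ± 0.0413, adjusted p = 9.27e-10), and starved ones did so with TMM (-0.26 ± 0.0428, adjusted p = 1.26e-05) but not with library totals (0.06, adjusted p = 0.214). Starvation lowered it in WT cells (-0.23 ± 0.0422, adjusted p = 3.22e-05). This was -0.14 (adjusted p = 0.0105) without the second starved WT library. In KO-labelled cells the value was -0.01 ± 0.0417 (adjusted p = 0.857), and with library totals it was -0.26 and called (adjusted p = 5.68e-06). Between genotypes the responses differed by 0.23 ± 0.0594 (adjusted p = 0.00226). With DESeq2 the difference was 0.13 and not called (adjusted p = 0.131). It was 0.11 or 0.08 and not called without the first or the second starved WT library.

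Setdb2, a relative of Setdb1 with a role in H3K9 methylation, had the fewest counts of the 10, with 212 in the lowest library. Its level was 5.85 and 6.08 CPM in starved and 15.2 and 13.5 CPM in fed KO-labelled libraries, against 6.51 and 6.54 CPM in starved and 9.63 and 10.4 CPM in fed WT libraries. Starved libraries lay below fed ones, and fed KO-labelled libraries were highest. Setdb2 fell on starvation in KO-labelled cells (-1.26 ± 0.107, adjusted p = 5.48e-10) and in WT cells (-0.62 ± 0.118, adjusted p = 6.3e-05), and the difference of the responses was -0.65 ± 0.16 (adjusted p = 0.00135). It was higher in KO-labelled than in WT cells when fed (0.52 ± 0.102, adjusted p = 0.000117). When starved the value was -0.13 ± 0.123 (adjusted p = 0.345), or 0.19 with library totals.

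Trim28, the corepressor that joins KRAB zinc finger proteins to SETDB1 and HP1, had, like Ehmt2, its fed and starved levels in opposite order in the genotypes on the TMM scale. It was read at 272 and 272 CPM in starved and 395 and 395 CPM in fed KO-labelled libraries, against 310 and 326 CPM in starved and 294 and 292 CPM in fed WT libraries. No groups overlapped, with fed KO-labelled highest and starved KO-labelled lowest. Trim28 fell in KO-labelled cells (-0.54 ± 0.0301, adjusted p = 4.74e-13). In WT cells it rose by 0.12 ± 0.0306 (adjusted p = 0.00157) with TMM, or by 0.23 without the first starved WT library, but with library totals it fell (-0.34, adjusted p = 8.38e-10). The responses differed by -0.65 ± 0.0429 (adjusted p = 2.74e-11) and was called in each alternative, at -0.45 with library totals. Trim28 was higher in KO-labelled than in WT cells when fed (0.43 ± 0.0301, adjusted p = 3.48e-11). When starved it was lower with TMM (-0.22 ± 0.0306, adjusted p = 1.05e-06) and higher with library totals (0.09, adjusted p = 0.00711).

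Trim28 had 3.87 and 4.01 counts per count of Setdb1 in starved and 5.56 and 5.80 in fed KO-labelled libraries, against 3.71 and 3.97 in starved and 2.99 and 3.03 in fed WT libraries. Starved libraries of both genotypes overlapped, while the fed ones lay on either side of them. Setdb1 had 12.0 and 11.2 counts per count of Setdb2 in starved and 4.68 and 5.06 in fed KO-labelled libraries, against 12.8 and 12.6 in starved and 10.2 and 9.27 in fed WT libraries. The fed KO-labelled libraries stood apart with the lowest values of this ratio.

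**Figure D3:**
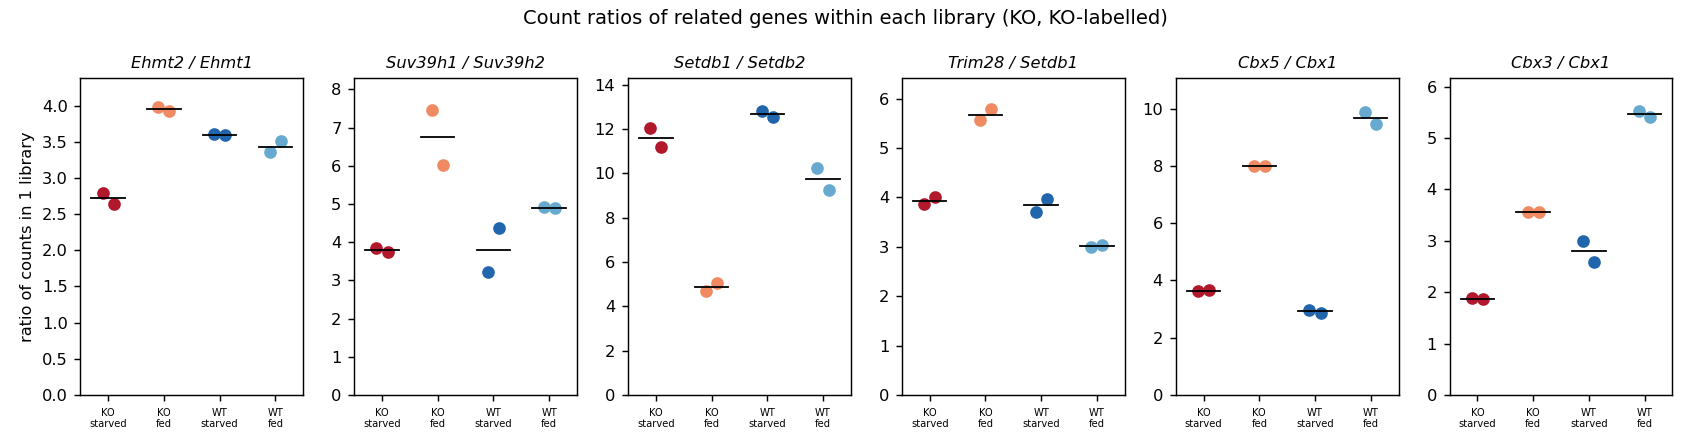
Ratio of the counts of 2 related genes within each library (vertical axes start at 0), with 1 point per library and a line at the mean of the 2; scaling has no effect on these ratios. Cbx5 over Cbx1 is 2.86 to 3.66 in the 4 starved libraries and 7.99 to 9.88 in the 4 fed libraries.

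The 3 HP1 genes did not move as a unit. Cbx5, which encodes HP1 alpha, was read at 162 and 162 CPM in starved and 350 and 339 CPM in fed KO-labelled libraries, against 142 and 147 CPM in starved and 427 and 426 CPM in fed WT libraries. Starved libraries lay far below fed ones, and the span between feeding states was wider in WT. Cbx5 fell in KO-labelled cells (-1.09 ± 0.0311, 2.13-fold, adjusted p = 4.03e-18) and in WT cells (-1.56 ± 0.0321, 2.95-fold, adjusted p = 1.07e-20). The responses differed by 0.47 ± 0.0443 (adjusted p = 6.99e-09), or 0.67 with library totals. KO-labelled cells had less Cbx5 when fed (-0.31 ± 0.0302, adjusted p = 9.17e-09) and more when starved (0.17 ± 0.0325, adjusted p = 8.98e-05). The starved difference was 0.08 (adjusted p = 0.0588) without the first starved WT library and 0.48 with library totals.

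Cbx3, which encodes HP1 gamma, was read at 84.2 and 82.7 CPM in starved and 155 and 151 CPM in fed KO-labelled libraries, against 143 and 133 CPM in starved and 238 and 243 CPM in fed WT libraries. No groups overlapped, and KO-labelled libraries lay below WT in each feeding state. It fell on starvation in KO-labelled cells (-0.88 ± 0.0381, adjusted p = 5.46e-15) and in WT cells (-0.80 ± 0.0376, adjusted p = 1.65e-14). The difference of the responses, -0.07 ± 0.0534 (adjusted p = 0.233), was not called. It was called at 0.13 with library totals (adjusted p = 0.0451) and at -0.17 with DESeq2 (adjusted p = 0.0127). With a filter of 5 CPM in 2 libraries it was -0.14 (adjusted p = 0.0227). Without the first or the second starved WT library it was -0.15 or -0.26, also called. KO-labelled cells had less Cbx3 than WT cells when starved (-0.73 ± 0.0391, adjusted p = 2.57e-13) and when fed (-0.65 ± 0.0365, adjusted p = 7.81e-13), as in each of 15 alternatives.

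Cbx1, which encodes HP1 beta, changed least of the 3 HP1 genes in CPM. It was read at 44.8 and 44.3 CPM in starved and 43.7 and 42.4 CPM in fed KO-labelled libraries, against 47.6 and 51.5 CPM in starved and 43.2 and 44.99 CPM in fed WT libraries. The fed groups overlapped, and starved WT was highest. Starvation gave 0.05 ± 0.0515 in KO-labelled cells (adjusted p = 0.406) and a rise of 0.17 ± 0.0537 in WT cells (adjusted p = 0.00689), but with library totals Cbx1 fell in both (-0.21 and -0.29, both called). The WT rise was 0.14 (adjusted p = 0.062) without the first fed WT library and 0.30 without the first starved WT library. The difference of the responses, -0.12 ± 0.0744 (adjusted p = 0.161), was not called and was 0.08 with library totals. It was called with DESeq2 (-0.22, adjusted p = 0.0399) and with a filter of 5 CPM in 2 libraries (-0.19, adjusted p = 0.0238). Without the first or the second starved WT library it was -0.30 or -0.20, also called. Between genotypes the difference was -0.03 ± 0.0521 when fed (adjusted p = 0.587; 0.08 with library totals). When starved it was -0.15 ± 0.0531 (adjusted p = 0.0121), with a reversed sign under library totals (0.16, called). That starved difference was -0.14 (adjusted p = 0.0614) without the second starved KO-labelled library and -0.27 without the first starved WT library.

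The balance among HP1 genes within a library is free of scaling. Cbx5 had 3.62 and 3.66 counts per count of Cbx1 in starved and 8.004 and 7.985 in fed KO-labelled libraries, against 2.97 and 2.86 in starved and 9.88 and 9.46 in fed WT libraries. Cbx3 had 1.88 and 1.87 counts per count of Cbx1 in starved and 3.55 and 3.56 in fed KO-labelled libraries, against 3.00 and 2.59 in starved and 5.52 and 5.41 in fed WT libraries. Both ratios were lower in starved than in fed libraries of each genotype. Divided by transcript length and summed over the 3 genes, Cbx1 held 36.3% and 36.3% of HP1 counts in starved and 22.3% and 22.3% in fed KO-labelled libraries, against 29.3% and 32.0% in starved and 16.5% and 16.9% in fed WT libraries. Cbx5 held 18.6% and 18.9% in starved and 25.3% and 25.3% in fed KO-labelled libraries, against 12.4% and 13.02% in starved and 23.2% and 22.7% in fed WT libraries. Cbx3 held the largest share in each library, between 44.9% and 60.4%. By this measure Cbx1 was above Cbx5 in starved cells of both genotypes and below it in fed cells.

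**Figure D4:**
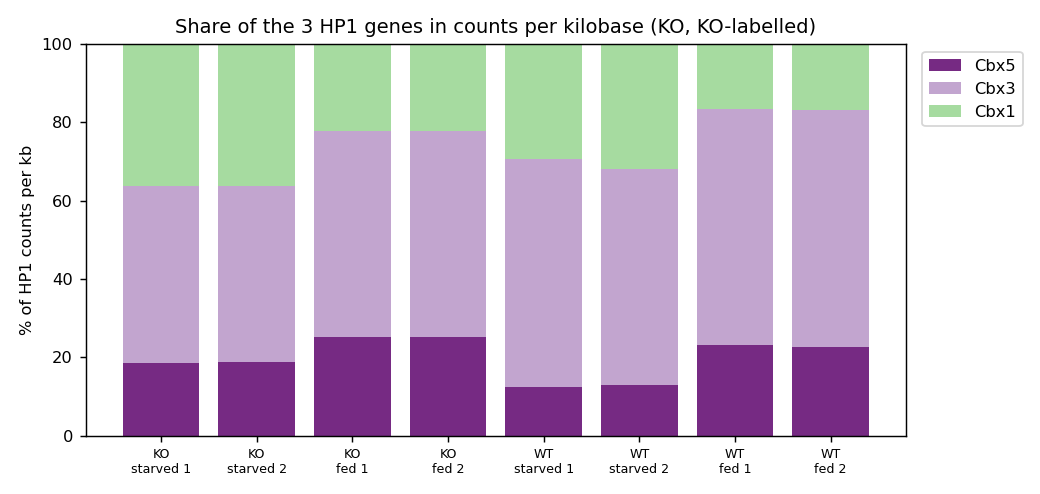
Share of Cbx5, Cbx3 and Cbx1 in the summed counts per kilobase of the 3 HP1 genes (percent), with 1 bar per library. The Cbx1 part is 29.3% to 36.3% in the 4 starved libraries and 16.5% to 22.3% in the 4 fed libraries.

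Per kilobase of transcript, the order in starved KO-labelled cells was Trim28 (84.0 ± 0.00722 CPM per kb, SD, n = 2), Cbx3 (44.2 ± 0.541), Ehmt2 (42.9 ± 0.314), Cbx1 (35.6 ± 0.276) and Cbx5 (18.4 ± 0.00703). Setdb1 (15.1 ± 0.372), Ehmt1 (13.6 ± 0.447), Suv39h1 (13.3 ± 0.211) and Suv39h2 (2.53 ± 0.0112) came next, and Ehmt1 and Suv39h1 did not differ beyond their spread. In fed WT cells Cbx3 came first (128 ± 1.82 CPM per kb, SD, n = 2), then Trim28 (90.3 ± 0.534) and Ehmt2 (72.0 ± 2.18). Cbx5 (48.4 ± 0.0812), Cbx1 (35.2 ± 1.03) and Suv39h1 (27.0 ± 0.321) followed. Setdb1 (21.3 ± 0.355), Ehmt1 (18.1 ± 1.09) and Suv39h2 (3.96 ± 0.0572) were lowest, and neighbours in this order lay further apart than the SD of either. Trim28 also led in fed KO-labelled cells (122 ± 0.0848) and in starved WT cells (97.9 ± 3.59), where Ehmt2 (96.9 ± 1.26) did not differ from it beyond the spread. Setdb2 had no matched transcript length.

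Cells also differed in growth markers. The summed level of 10 proliferation genes was 996 to 1004 CPM in starved and 2497 to 2499 CPM in fed KO-labelled libraries, against 1263 to 1278 CPM in starved and 2228 to 2234 CPM in fed WT libraries. On starvation 9 of the 10 fell and 1 (Mcm2, a replication licensing gene) rose in KO-labelled cells, and 8 fell and 1 (Mcm2 again) rose in WT cells. Their part in the falls of Suv39h1, Setdb2, Cbx3 and Cbx5 was not tested. Fibroblast markers changed as well. They summed to 13100 to 13230 CPM in starved and 10870 to 10920 CPM in fed KO-labelled libraries, against 20020 to 21020 CPM in starved and 19890 to 20500 CPM in fed WT libraries. Of the 10, 2 rose and 8 fell on starvation in KO-labelled cells, and 3 rose and 7 fell in WT cells. Thy1, a surface marker of fibroblasts, was read at 4.72 and 5.61 CPM in starved and 5.88 and 6.62 CPM in fed KO-labelled libraries, against 166 and 163 CPM in starved and 99.3 and 103 CPM in fed WT libraries. Col1a2, a type I collagen gene, was read at 36.2 and 36.4 CPM in starved and 268 and 261 CPM in fed KO-labelled libraries, against 353 and 381 CPM in starved and 6200 and 6020 CPM in fed WT libraries. Thy1 thus separated the genotypes, and Col1a2 was lower in KO-labelled cells and in starved cells of each genotype. Other markers went the other way, such as Pdgfra, which was higher in KO-labelled cells. Its means were 24.3 CPM (KO-labelled) against 5.73 CPM (WT) when starved, and 97.5 against 30.7 CPM when fed. Of the 10 markers, 4 were higher and 5 lower in starved KO-labelled cells, beside 41.9% and 37.7% of all tested genes. When fed, 3 were higher and 6 lower, beside 34.5% and 39.8%. The part of these shifts in the member differences was not tested.

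Among markers of other cell types, the 5 of epithelium summed to 4.28 to 4.31 CPM in starved and 2.21 to 2.64 CPM in fed KO-labelled libraries, against 20.8 to 21.5 CPM in starved and 25.3 to 25.5 CPM in fed WT libraries. Krt19, a keratin gene, made up most of the WT sums. The blood markers summed to 6.45 to 6.88 CPM in starved and 0.775 to 1.05 CPM in fed KO-labelled libraries, against 0.829 to 1.94 CPM in starved and 0.533 to 1.48 CPM in fed WT libraries. Csf1r, a macrophage growth factor receptor, was read at 6.03 and 6.42 CPM in starved KO-labelled libraries, while Ptprc, Emr1 and Cd3e were at 0 in all 8 libraries. The 3 muscle markers summed to at most 1.54 CPM in any library, from Des, with Myod1 and Myog at 0, and Sox10, a glial marker, was at 0. The summed level of 5 endothelial markers was 5.41 to 5.499 CPM in starved and 2.76 to 4.15 CPM in fed KO-labelled libraries, against 52.9 to 54.9 CPM in starved and 2.29 to 2.51 CPM in fed WT libraries, most of it from Kdr in starved WT, while Tie1 was at 0. The part of these markers in the member values was not tested. In bulk RNA, fewer cells of a type and less RNA per cell cannot be told apart.

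Cbx5 and Cbx3 each share a start region with a gene on the opposite strand, Hnrnpa1 and Hnrnpa2b1, which encode RNA-binding splicing factors. Hnrnpa1 was read at 463 and 453 CPM in starved and 684 and 682 CPM in fed KO-labelled libraries, against 1389 and 1419 CPM in starved and 957 and 974 CPM in fed WT libraries. In WT cells it rose on starvation (0.54 ± 0.0254, or 0.09 and still called with library totals) while Cbx5 fell (-1.56), and in KO-labelled cells it fell (-0.58 ± 0.0256). Hnrnpa2b1 was read at 351 and 346 CPM in starved and 978 and 974 CPM in fed KO-labelled libraries, against 590 and 587 CPM in starved and 1171 and 1222 CPM in fed WT libraries. Like Cbx3 it fell in both genotypes, with log2 fold changes of -1.49 ± 0.0272 in KO-labelled and -1.02 ± 0.0269 in WT cells.

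By the root mean square difference of centred log2 CPM over the 8 libraries, the tested gene nearest to each member was Dab2ip for Trim28 (0.0184), Rcn1 for Setdb1 (0.0329), Ppm1b for Cbx1 (0.0332), Loxl3 for Suv39h1 (0.0332) and Tubb5 for Ehmt2 (0.0387). It was Otud6b for Ehmt1 (0.0416), Filip1l for Cbx3 (0.0555), Thra for Cbx5 (0.0611), Arhgap11a for Setdb2 (0.0816) and Tmem242 for Suv39h2 (0.12). These values describe likeness over 2 libraries in each of 4 groups, and no member was nearest to another member.

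A list of 38 partner genes was examined beside the members. On starvation 8 of them rose and 22 fell in KO-labelled cells, beside 39.4% and 40.3% of all tested genes, and 13 rose and 17 fell in WT cells, beside 36.7% and 44.8%. The 30 of 38 called in each genotype were near the share of all tested genes that was called (79.7% in KO-labelled and 81.6% in WT cells). With library totals the counts were 6 and 27 in KO-labelled and 7 and 26 in WT cells. The median log2 fold change of the list was -0.31 in KO-labelled and -0.03 in WT cells, against -0.02 and -0.17 for all tested genes. Among the 18 genes of HP1-bound or heterochromatin proteins, 1 rose and 14 fell in KO-labelled cells (median -0.53), and 5 rose and 9 fell in WT cells (median -0.08), beside the same shares of all tested genes.

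Zfp57, Prdm16, Wiz and Cdyl had the largest rises of the list in KO-labelled cells and also in WT cells. Zfp57, a KRAB zinc finger gene that protects imprints, was read at 85.6 and 90.0 CPM in starved and 12.4 and 12.2 CPM in fed KO-labelled libraries, against 67.4 and 61.0 CPM in starved and 22.1 and 22.4 CPM in fed WT libraries. It rose by 2.83 ± 0.0594 in KO-labelled and 1.53 ± 0.059 in WT cells. Wiz, a zinc finger subunit of the G9a and GLP complex, rose by 0.76 ± 0.0397 in KO-labelled and 0.95 ± 0.0385 in WT cells. Cdyl, a chromodomain corepressor that binds G9a, rose by 0.63 ± 0.0659 in KO-labelled and 1.44 ± 0.0653 in WT cells. Prdm16, of the PRDM family of SET-related genes, rose by 1.87 ± 0.294 in KO-labelled and 1.17 ± 0.259 in WT cells, at levels of at most 3.35 CPM.

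Among those that fell most, Suv420h2, which encodes an H4K20 methyltransferase recruited by HP1, had log2 fold changes of -1.67 ± 0.102 in KO-labelled and -2.38 ± 0.128 in WT cells. Mecom, also of the PRDM family, had -1.78 ± 0.0806 in KO-labelled and -1.30 ± 0.082 in WT cells. Incenp, a chromosomal passenger subunit that binds HP1, fell in KO-labelled cells (-1.69 ± 0.0372) and in WT cells (-1.11 ± 0.0371). D14Abb1e, the older symbol of a HUSH complex gene now called Tasor, fell in KO-labelled cells (-0.77 ± 0.0849) and in WT cells (-1.86 ± 0.0959). Sgol1, which protects cohesion at centromeres, fell in KO-labelled cells (-0.84 ± 0.0599) and in WT cells (-1.77 ± 0.064). Both responses differed between the genotypes, by 1.09 ± 0.129 for D14Abb1e and 0.93 ± 0.0884 for Sgol1.

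**Figure D5:**
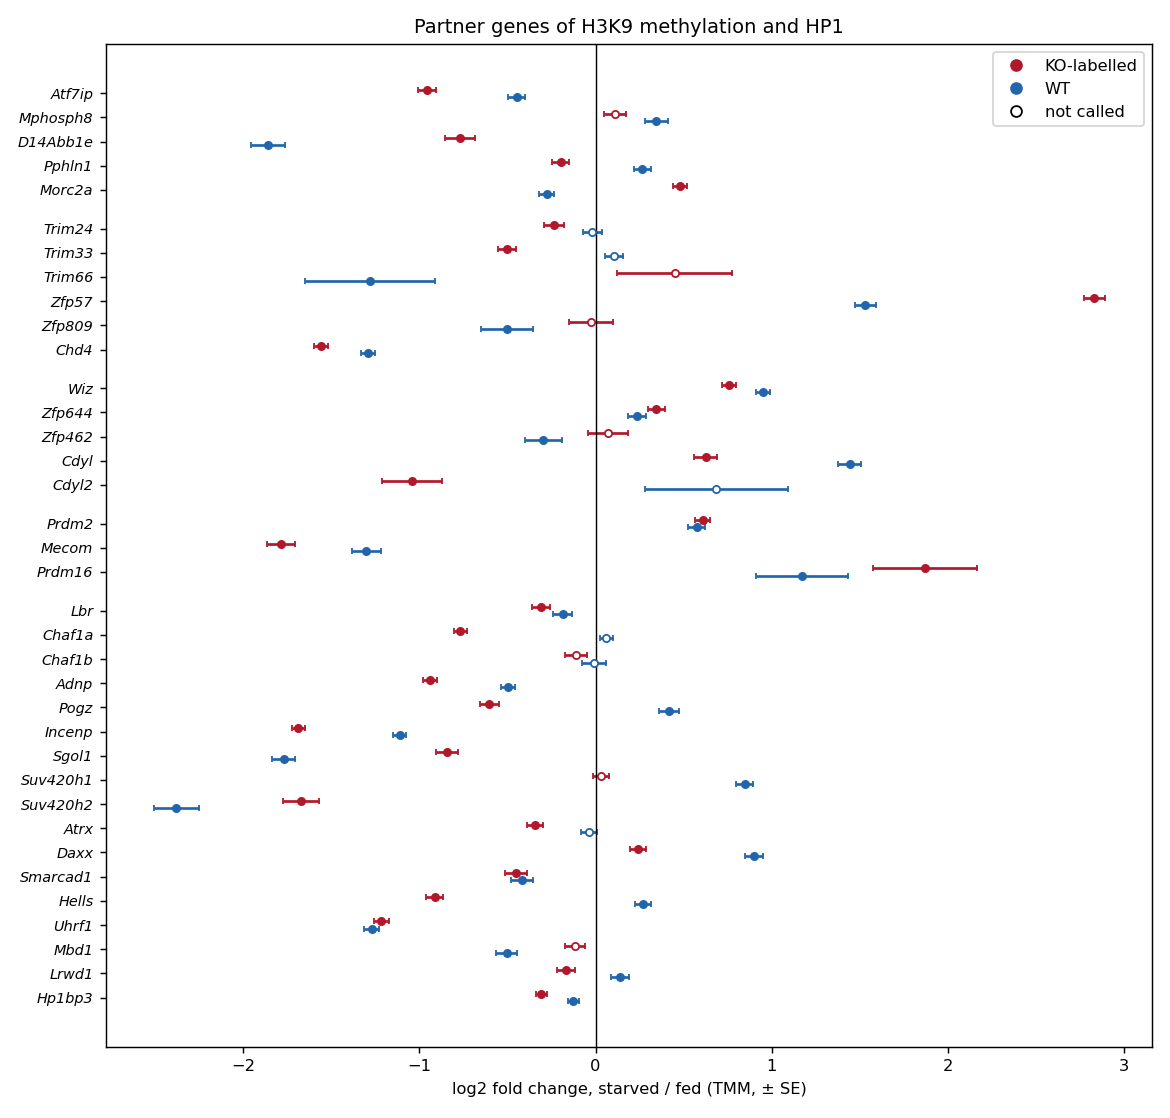
Log2 fold change on starvation (horizontal axis, TMM, bars ± SE) of 36 partner genes in KO-labelled cells (red) and WT cells (blue), open where not called. Blocks from the top are SETDB1 and HUSH, TRIM and KRAB, G9a and GLP, PRDM, and HP1 partners; Sp100 and Atf7ip2 are left out because WT libraries held at most 2 counts. Zfp57 rises in both genotypes (2.83 and 1.53), and Suv420h2 falls in both (-1.67 and -2.38).

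Between genotypes, 13 partners were higher and 22 lower in KO-labelled cells when starved, beside 41.9% and 37.7% of all tested genes, and 11 were higher and 20 lower when fed, beside 34.5% and 39.8%. With library totals these counts were 17 and 15 when starved and 13 and 13 when fed. Trim24, a relative of Trim28, was read at 22.9 and 24.8 CPM in starved and 27.9 and 28.3 CPM in fed KO-labelled libraries, against 61.0 and 63.0 CPM in starved and 61.0 and 64.8 CPM in fed WT libraries. It was lower in KO-labelled cells when starved (-1.38 ± 0.0568) and when fed (-1.16 ± 0.0542). Hells, a chromatin remodeller needed for DNA methylation of repeats, was lower in starved KO-labelled than in starved WT cells (-1.80 ± 0.0462), as was Cdyl (-1.03 ± 0.0627). Lbr, the lamin B receptor that binds HP1, was higher in fed KO-labelled cells (0.66 ± 0.05), and Cdyl2, a relative of Cdyl, was higher both when starved (2.70 ± 0.268) and when fed (4.43 ± 0.255).

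Sp100, a nuclear body protein that binds HP1, held 161 and 213 counts in starved and 1898 and 1699 in fed KO-labelled libraries, against 2 and 1 in starved and 2 and 0 in fed WT libraries. It fell on starvation in KO-labelled cells (-3.08 ± 0.116). Atf7ip2, a relative of the SETDB1 cofactor Atf7ip, held 26 and 21 counts in starved and 36 and 46 in fed KO-labelled libraries, against 0 and 0 in starved and 0 and 2 in fed WT libraries. All KO-labelled libraries had counts of both genes, and no WT library held more than 2.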

How the data were processed

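RNA was sequenced from 8 libraries of mouse embryonic fibroblasts. Values are raw read counts for RefSeq transcripts, as the authors deposited them. TopHat2 2.0.9, bedtools and build mm9 appear, without roles, in the submitters' processing notes. Strand use and the treatment of reads with several matches are not given by the sources, so overlapping genes and pseudogene copies stay uncertain. A further 4 columns matched no labelled sample and were not used. For a symbol with several rows, which repeat reads, the one with the most counts was used (38407526 to 53602297 counts per library).

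The test was edgeR 4.0.16 (R 4.3.3) with TMM scaling and filterByExpr, a single model of the 4 groups fitted to all libraries (4 residual degrees of freedom), and the quasi-likelihood F test (Benjamini-Hochberg over 14418 genes, threshold 0.05), after the script was tested on simulated data. SEs were derived from F and the log2 fold change. The 5 comparisons were starvation in each genotype, genotype in each feeding state, and the KO-labelled minus the WT starvation response. Alternatives were DESeq2 1.42.0, library totals, no filter, 5 CPM in 2 libraries, summed rows, only the 2 groups compared, a replicate block, and leaving out each library.

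Levels per kilobase used GENCODE M21 lengths of 9 members matched by RefSeq accession. Promoter windows are from RefSeq GRCm38.p6, a build other than that of the counts, and all 10 members matched. Named genes were the 10 members, Kdm3a, the 2 opposite-strand neighbours, the nearest gene to each member, and up to 4 called partners with the largest change in each direction. Members and lists were chosen with earlier results of these data known.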

Additional observations from a re-analysis of the deposited data

Results flagged for a closer look

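For 7 of the 10 genes the starvation response differed between the genotypes by edgeR's test of the difference itself (KO-labelled minus WT, log2). The difference was -0.81 for Ehmt2 (adjusted p = 1.52e-12), with responses of -0.38 in KO-labelled and 0.43 in WT cells. It was -0.65 for Trim28 (adjusted p = 2.74e-11), with responses of -0.54 in KO-labelled and 0.12 in WT cells. Setdb2 also differed by -0.65 (adjusted p = 0.00135), with a deeper fall in KO-labelled cells. Cbx5 differed by 0.47 (adjusted p = 6.99e-09), with a shallower fall in KO-labelled cells. These 4 were called in all 14 alternatives. The difference was 0.47 for Suv39h2 (adjusted p = 0.0199), 0.23 for Setdb1 (adjusted p = 0.00226) and -0.19 for Ehmt1 (adjusted p = 0.0133). Each of these 3 lost its call in 3 of the 14 alternatives. The sex of the embryos goes with the KO label, so its part in any of these was not tested and cannot be told apart.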

How the results depend on the processing

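Of the members, 9 had at least 377 counts in each library, whereas Setdb2 had as few as 212. The part of depth in the spread was not tested. The KO label goes with sex, and starvation goes with medium and time. With 2 libraries a group, several values moved when the first or the second starved WT library was left out. Some moved the same way whichever of them was left out. The Setdb1 difference of responses went from 0.23 to 0.11 or 0.08, and DESeq2 on all libraries gave 0.13. Of 740 recomputed member values, 676 kept direction and call, 21 lost and 11 gained a call, and 32 changed sign, 17 of these with library totals. With library totals, the log2 values of opposite sign were -0.10 (Ehmt1), -0.028 (Ehmt2), -0.29 (Cbx1) and -0.34 (Trim28) for starvation in WT; -0.0899 (Ehmt1), -0.16 (Suv39h2) and -0.21 (Cbx1) in KO-labelled cells; 0.0834 (Cbx1) between fed groups; 0.0655 (Suv39h1), 0.0421 (Suv39h2), 0.058 (Setdb1), 0.19 (Setdb2), 0.16 (Cbx1) and 0.0943 (Trim28) between starved groups; and 0.0076 (Ehmt1), 0.0789 (Cbx1) and 0.13 (Cbx3) for the difference of responses. The share of all calls that were higher was then 37% in place of 49.4% (starvation, KO-labelled), 28.2% in place of 45% (starvation, WT), 67.4% in place of 52.6% (genotype, starved), 55.1% in place of 46.4% (genotype, fed) and 67% in place of 52.9% (difference). With a filter of 5 CPM, signs turned for Cbx1 in KO-labelled starvation (-0.0446) and between fed groups (0.0144) and for the Suv39h1 difference (-0.0234). DESeq2 turned Cbx1 between fed groups (0.0043) and the Suv39h1 difference (-0.0528), and a fit of only the 2 groups turned Cbx1 between fed groups (0.0265). Leaving out 1 library gave -0.0069 to 0.0739 (Cbx1), -0.058 to 0.27 (Suv39h2) and -0.0628 to 0.0273 (Setdb1) for KO-labelled starvation, -0.0653 to 0.0308 (Cbx1, fed groups) and -0.0994 to 0.0644 (Suv39h1, difference). Of the values named here as changing sign, those outside library totals were not called in the analysis reported above. The Setdb1 difference of responses, which kept its sign, was called there. The counts of called members with 1 library left out ran from 7 to 7 and from 9 to 10 for starvation in KO-labelled and WT cells, from 7 to 9 and from 9 to 9 for genotype when starved and fed, and from 6 to 8 for the difference. The causes were not tested.

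The labels do not say whether the replicate numbers pair libraries. Replicate differences of the groups correlated at -0.019 to 0.014 across genes, which cannot show whether the libraries were prepared in pairs. With a replicate block, 7 and 10 members were called for starvation in KO-labelled and WT cells, 8 and 9 for genotype when starved and fed, and 7 for the difference, and the lost call was Suv39h2 between starved groups (-0.27, adjusted p = 0.0596).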

Other observations

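Chromodomain relatives of the HP1 genes include Cbx2, Cbx6, Cbx7 and Cbx8, whose proteins read H3K27 methylation in Polycomb complexes. They were added after the values were seen. Cbx2 was read at 2.62 and 3.08 CPM in starved and 10.8 and 11.8 CPM in fed KO-labelled libraries, against 1.75 and 2.70 CPM in starved and 15.4 and 16.6 CPM in fed WT libraries, with log2 fold changes of -1.98 ± 0.141 in KO-labelled and -2.85 ± 0.158 in WT cells. Cbx6 fell in KO-labelled cells (-1.04 ± 0.0393) and in WT cells (-0.64 ± 0.0407). Cbx7 stood at 2.62 and 2.36 CPM in starved and 8.99 and 8.59 CPM in fed KO-labelled libraries, against 0.430 and 0.333 CPM in starved and 2.80 and 2.46 CPM in fed WT libraries, and it fell in KO-labelled cells (-1.82 ± 0.157) and in WT cells (-2.78 ± 0.279). Cbx8 had log2 fold changes of 0.28 ± 0.127 in KO-labelled cells (adjusted p = 0.0498, called in 1 of 15 alternatives) and -0.57 ± 0.147 in WT cells (adjusted p = 0.00145), and the responses differed by 0.84 ± 0.194 (adjusted p = 0.000699).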
